A study of Rattus norvegicus with 8 samples.

Results

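Transcripts of 8 genes with roles at the blood vessel wall, not all of them particular to vessel cells, were examined in burned and unburned rat skin. They are the leukocyte adhesion genes Icam1 (ENSRNOG00000020679), Vcam1 (ENSRNOG00000014333) and Selp (ENSRNOG00000002794). The growth and permeability genes are Vegfa (ENSRNOG00000019598), Kdr (ENSRNOG00000046829), Flt1 (ENSRNOG00000000940), Tek (ENSRNOG00000008587) and Adm (ENSRNOG00000027030). Each was read from the count table by a fixed Ensembl identifier, and all 8 of 8 identifiers were present among 26404 in the table and among the 14240 genes tested. The symbols come from that list of identifiers, because the count table carries no gene names. RNA sequencing was made of dorsal hind paw skin from Sprague-Dawley rats of 125 to 200 g, with 4 burn and 4 control libraries. In the burn group the paw had been held in saline at 60 °C for 2 min, a deep partial-thickness scald, and in the control group the opposite paw had been held in saline at room temperature. All rats were under urethane anaesthesia, and at both kinds of site the skin had carried a microdialysis probe, so neither group is untouched skin. Neither the time from burn to excision nor the animal behind each library is labelled, and p-values therefore speak of the spread among these 8 samples alone, which may be technical.

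Leukocytes leave the blood by way of adhesion molecules on the endothelium. Selp encodes P-selectin, which is stored in endothelial granules and platelets and lets leukocytes roll, while Icam1 and Vcam1 encode ligands for leukocyte integrins that hold them firmly. VEGF-A, made by many cells of the skin, makes vessels leaky and drives new growth through its receptor VEGFR2 (Kdr), and VEGFR1 (Flt1) binds the same ligand with strong affinity and weak signalling. TIE2, the angiopoietin receptor encoded by Tek, and adrenomedullin, the peptide encoded by Adm, are both known for stabilising the endothelial barrier.

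The upstream sequences of 4 of these genes are shown, for the adhesion pair Icam1 and Vcam1 and the VEGF-A receptor pair Kdr and Flt1, since each pair serves a like role and its transcripts were compared within a library. They are the 250 bases before the annotated start, 5′ to 3′ on the strand of the gene, from RefSeq on the build GRCr8, and the counts were made on Rnor_5.0. Of the 8 genes 6 had an entry and Selp and Tek did not match. The positions are chr8:27829595-27829844 on the plus strand for Icam1, chr2:206742784-206743033 on the minus strand for Vcam1, chr14:32571813-32572062 on the plus strand for Kdr and chr12:12333180-12333429 on the plus strand for Flt1. Capitals mark every match, on either strand, to the motifs searched: the NF-kB consensus, TATAAA, the hypoxia-inducible factor core ACGTG, the STAT palindrome TTCNNNGAA and the heat shock pair GAANNTTC.
Icam1: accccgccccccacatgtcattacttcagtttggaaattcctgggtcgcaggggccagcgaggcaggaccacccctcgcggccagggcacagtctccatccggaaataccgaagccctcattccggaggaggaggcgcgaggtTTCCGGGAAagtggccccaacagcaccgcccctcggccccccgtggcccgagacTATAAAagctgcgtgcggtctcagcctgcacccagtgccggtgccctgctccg
Vcam1: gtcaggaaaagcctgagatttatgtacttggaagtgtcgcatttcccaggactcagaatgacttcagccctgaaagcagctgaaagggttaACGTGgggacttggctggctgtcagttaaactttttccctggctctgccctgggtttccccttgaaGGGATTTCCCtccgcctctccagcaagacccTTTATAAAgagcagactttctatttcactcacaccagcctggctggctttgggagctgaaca
Kdr: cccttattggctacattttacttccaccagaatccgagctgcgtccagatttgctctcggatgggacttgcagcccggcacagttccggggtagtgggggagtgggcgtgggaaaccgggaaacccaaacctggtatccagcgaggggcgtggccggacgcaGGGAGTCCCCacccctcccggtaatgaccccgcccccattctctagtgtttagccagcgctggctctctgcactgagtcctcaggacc
Flt1: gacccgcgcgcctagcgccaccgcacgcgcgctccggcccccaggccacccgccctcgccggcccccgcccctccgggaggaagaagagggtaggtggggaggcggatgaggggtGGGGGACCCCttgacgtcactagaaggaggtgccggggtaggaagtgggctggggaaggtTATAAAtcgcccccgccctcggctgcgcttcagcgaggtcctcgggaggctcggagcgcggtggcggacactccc
The Vcam1 window held an NF-kB match, GGGATTTCCC, that reads as a match on both strands, an ACGTG and a pair of overlapping TATAAA matches on opposite strands. The Icam1 window held TTCCGGGAA, a match to the STAT palindrome, and a TATAAA, but no match to the NF-kB consensus as searched. Kdr and Flt1 each held an NF-kB match, GGGAGTCCCC and GGGGGACCCC, and Flt1 also a TATAAA. The windows of Adm and Vegfa, which are not shown, held no match to any of the motifs searched. Among the 33469 windows of the same length in the table, 3.54% held the NF-kB consensus, 12.9% TATAAA, 16.6% ACGTG, 7.67% the STAT palindrome and 7.23% the heat shock pair. These are matches of letters to fixed patterns, which for NF-kB was GGGRNWYYCC in the standard base codes. Sites that depart from a pattern were not searched, so a window without a match may still hold such a site. Binding was not measured.

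Libraries held 13693811 to 18738652 counts in the burn group and 17824830 to 26837925 in the control group. Burn replicate 3 stands apart from the rest of its group. It had counts for 15354 genes, where the other 7 libraries had 17322 to 17547, so several of the results are also given without it. Cell type markers could not be looked up by symbol in the count table, so the labelled tissue was not checked against them. In bulk skin, a change in the number of vessel or other cells and a change in RNA per cell cannot be told apart.

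None of the 8 genes passed the threshold in the comparison of burned with control skin (edgeR quasi-likelihood test, adjusted p under 0.05 over all genes tested). Across all 14240 genes 21.9% passed, 11.9% higher and 10.0% lower in burn. At an unadjusted p under 0.05 there were 3 of the 8, Selp, Kdr and Tek, all higher in burn, against 37.8% of all genes. By the DESeq2 Wald test 2 of the 8 passed, beside 32.3% of all genes, and by limma-voom 0, beside 22.5%. By limma-voom with sample quality weights 3 passed, beside 30.7% of all genes, and with 1 surrogate variable in the edgeR model 4, beside 39.2%. The fitted log2 fold change was positive for 6 genes and negative for Vcam1 and Adm. Its median was 0.45, beside 0.064 over all genes tested. That median fell to 0.023 without burn replicate 2, beside 0.039 over all genes, and Icam1 and Flt1 were then negative as well. For none of the 8 were the burn and control libraries fully apart, where 31.0% of all genes tested were, 15.4% with burn higher and 15.6% with burn lower. The burn libraries divided differently from gene to gene, as the plot of values by library shows.

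**Figure D1:**
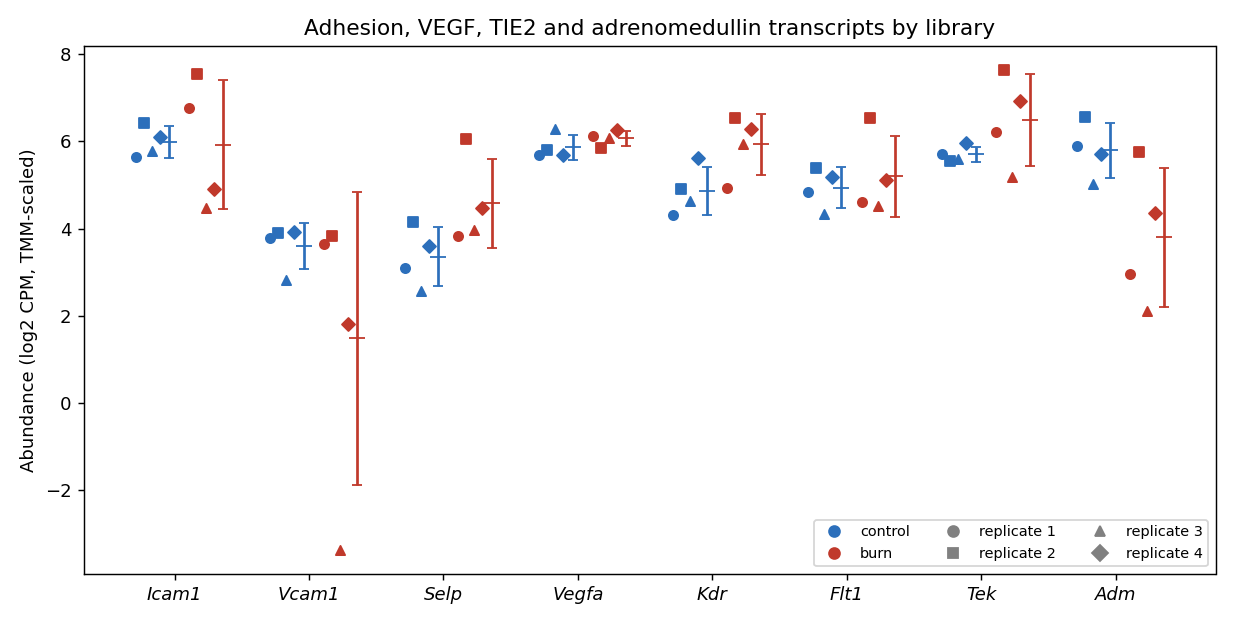
Abundance of each of the 8 genes in log2 CPM on the vertical axis, 1 point per library, blue for control and red for burn, with marker shape for the replicate number and a bar for the mean and SD (n = 4). The burn points are spread more widely than the control points for every gene except Vegfa, and Vcam1 in burn replicate 3 lies at the bottom because it had 0 counts there.

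Icam1, the integrin ligand on activated endothelium and many other skin cells, split the burn libraries. Its level, in CPM (counts scaled to a common library total), with TMM factors, was 109, 187, 22.1 and 29.9 in the burn libraries, by replicate number, and 49.6, 86.5, 54.9 and 68.5 in the control libraries. At these TMM-scaled levels burn replicates 1 and 2 lay above every control library and burn replicates 3 and 4 below every one. Scaled by library size alone, burn replicate 1 (1260 of 13693811 counts) would lie just below control replicate 2 (2496 of 26837925). The means were 87.2 ± 77.6 CPM in burn and 64.9 ± 16.5 in control (SD, n = 4), with a log2 fold change of 0.43 (SE 0.61, 95% interval -0.96 to 1.81, edgeR adjusted p = 0.645). The mean of log2 CPM has the other sign, 5.93 in burn and 5.99 in control, and without burn replicate 2 the fitted value was -0.27.

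Vcam1, the counter-receptor for the integrin VLA-4, was low in the same pair of burn libraries as Icam1. It stood at 12.5, 14.1, 0 and 3.43 CPM in the burn libraries, by replicate number, and at 13.8, 14.8, 6.92 and 15.0 CPM in the control libraries. Burn replicates 1 and 2 fell within the control range and burn replicates 3 and 4 below it. The 0 in burn replicate 3 allows up to 0.157 CPM, taking 3 counts as the limit for counting error alone, and the control mean was at least 80.3-fold higher than in that library. The log2 fold change was -0.76 (SE 1.00, 95% interval -3.02 to 1.50, edgeR adjusted p = 0.613), and without burn replicate 3 it was -0.34. The fitted size depended on the tool, reaching -3.03 by limma-voom (adjusted p = 0.164) and -1.42 by limma-voom with sample quality weights (adjusted p = 0.221). Limma-voom fits log values, on which the 0 in burn replicate 3 lies far below the other libraries, and it was not run without that library. Over 18 alternatives the adjusted p ran from 0.164 to 0.768.

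Selp leaned upward in every burn library. Its level was 14.2, 66.1, 15.5 and 22.0 CPM in the burn libraries, by replicate number, and 8.46, 17.6, 5.83 and 12.0 CPM in the control libraries. Each burn library lay above the control mean, and burn replicates 2 and 4 above every control library. The means were 29.4 ± 24.6 CPM in burn and 10.97 ± 5.10 in control (SD, n = 4). The log2 fold change was 1.42 (SE 0.55, 95% interval 0.17 to 2.67, edgeR adjusted p = 0.0958). Without burn replicate 2 it was 0.65, with an edgeR adjusted p of 0.220. By DESeq2 it passed the threshold, at 1.39 with an adjusted p of 0.0376, and over 18 alternatives the adjusted p ran from 0.0254 to 0.220.

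The ratio of Icam1 to Vcam1 within a library does not depend on how libraries are scaled. On the log2 scale, with 0.5 added to each count, it was 3.12, 3.73, 9.72 and 3.11 in the burn libraries, by replicate number, and 1.85, 2.54, 2.98 and 2.19 in the control libraries. All 4 burn libraries lay above all 4 control libraries, though the lowest burn value, 3.11, was close to the highest control value, 2.98. The value in burn replicate 3 depends on the 0.5 added, and with 3 counts taken for the 0 the ratio there is at least 7.13. The difference in means was 2.53, and a two-sided exact permutation test gave p = 0.0286, the smallest that 4 against 4 allows. It is 1 of 4 ratios tested, and the Benjamini-Hochberg adjusted p was 0.114, which misses the threshold. Without burn replicate 3 the difference was 0.93 (exact permutation p = 0.0571). A ratio of this kind can show unequal change of a pair and not which of them changed.

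**Figure D2:**
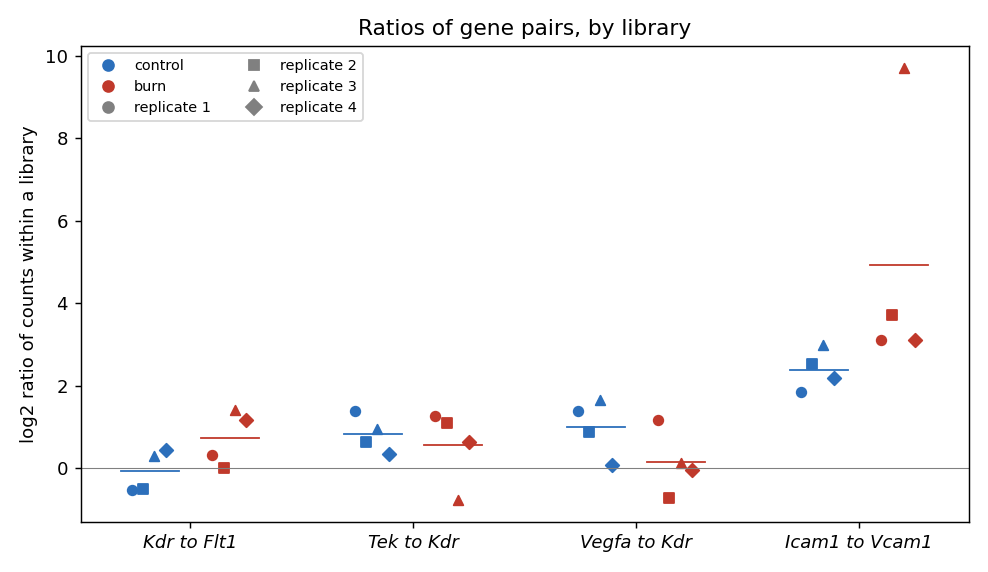
The log2 ratio of counts of 4 gene pairs within each library on the vertical axis, blue for control and red for burn, with marker shape for the replicate number and a line at the group mean (n = 4). Icam1 to Vcam1 is the pair whose groups do not overlap, with burn replicate 3 at 9.72, and the other 3 pairs overlap.

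Among the growth and permeability genes, Vegfa had the smallest difference in the edgeR fit with all libraries. Its level was 69.2, 57.2, 67.5 and 76.7 CPM in the burn libraries, by replicate number, and 51.9, 55.5, 77.9 and 51.6 CPM in the control libraries. All 4 burn libraries lay inside the control range at these TMM-scaled levels. The log2 fold change was 0.19 (SE 0.18, edgeR adjusted p = 0.472), and its 95% interval of -0.22 to 0.60 corresponds to a burn level of 0.860 to 1.52 times control. Without control replicate 3 the value was 0.35 (edgeR adjusted p = 0.199). Scaled by library size alone it was -0.021, while the median of all genes moved from 0.064 to -0.15. Vegfa was the 1 gene of the 8 with a smaller SD of log2 CPM in burn, 0.17, than in control, 0.28. The burn SD was below that of most genes, at percentile 8.33 of all genes tested, whose median was 0.52.

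Kdr, the main signalling receptor for VEGF-A, was higher in most burn libraries. It stood at 30.6, 93.5, 61.4 and 78.4 CPM in the burn libraries, by replicate number, and at 19.9, 30.0, 24.7 and 49.1 CPM in the control libraries. Burn replicates 2, 3 and 4 lay above every control library, and burn replicate 1 lay between the control values. The means were 66.0 ± 27.0 CPM in burn and 30.9 ± 12.8 in control (SD, n = 4), a fitted 2.14-fold difference (log2 fold change 1.09, SE 0.38, edgeR adjusted p = 0.0705). It passed the threshold without burn replicate 1, at 1.33 with an edgeR adjusted p of 0.0373, and by DESeq2, at 1.07 with an adjusted p of 0.0300. Over its 18 alternatives the adjusted p ran from 0.0300 to 0.168 and the log2 fold change from 0.88 to 1.40.

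Flt1, the other VEGF-A receptor, stayed closer to its control levels in most burn libraries. Its level was 24.5, 93.3, 22.8 and 34.7 CPM in the burn libraries, by replicate number, and 28.5, 42.1, 20.01 and 36.2 CPM in the control libraries. At these TMM-scaled levels only burn replicate 2 lay outside the control range, and it lay above. The log2 fold change was 0.47 (SE 0.46, 95% interval -0.59 to 1.52, edgeR adjusted p = 0.497), and without burn replicate 2 it was -0.22. The log2 ratio of Kdr to Flt1 was 0.73 ± 0.68 in burn and -0.067 ± 0.51 in control (SD, n = 4). The groups overlapped, and the difference of 0.80 did not pass the exact permutation test (two-sided p = 0.143, adjusted p = 0.229 over 4 ratios). Burn replicates 3 and 4 had the highest values, 1.43 and 1.18, while burn replicate 2, at 0.0031, lay inside the control range. Without burn replicate 3 the difference in this ratio was 0.57 (two-sided exact permutation p = 0.257). The ratio of the ligand Vegfa to Kdr was 0.14 ± 0.78 in burn and 1.00 ± 0.70 in control on the log2 scale (SD, n = 4), a difference that an exact two-sided permutation test did not separate (p = 0.171, adjusted p = 0.229).

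Tek, the receptor for the angiopoietins, had a narrow control range and a wide burn range. It stood at 74.1, 199.7, 36.1 and 122 CPM in the burn libraries, by replicate number, and at 52.0, 46.9, 48.2 and 62.0 CPM in the control libraries. At these TMM-scaled levels burn replicates 1, 2 and 4 lay above every control library and burn replicate 3 below every one. The highest and lowest burn libraries were 5.54-fold apart and the control libraries 1.32-fold. The log2 fold change was 1.05 (SE 0.44, 95% interval 0.047 to 2.04, edgeR adjusted p = 0.118). Without burn replicate 3 it was 1.33 and passed the threshold (edgeR adjusted p = 0.0153), without burn replicate 2 it was 0.56 (edgeR adjusted p = 0.257), and over all 18 alternatives the adjusted p ran from 0.00596 to 0.257. The log2 ratio of Tek to Kdr differed by -0.27 (two-sided exact permutation test, p = 0.743, adjusted p = 0.743), and without burn replicate 3 by 0.17.

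Adm had the largest of the 8 differences in size in the edgeR fit with all libraries, and it was downward. Its level was 7.73, 54.1, 4.25 and 20.5 CPM in the burn libraries, by replicate number, and 59.2, 94.6, 32.4 and 52.5 CPM in the control libraries. Burn replicates 1, 3 and 4 lay below every control library, and burn replicate 2 lay among them. The means were 21.6 ± 22.7 CPM in burn and 59.7 ± 25.9 in control (SD, n = 4), a fitted level 2.76-fold higher in control (log2 fold change -1.46, SE 0.71, 95% interval -3.08 to 0.15, edgeR adjusted p = 0.168). Without burn replicate 2 the value was -2.46 and passed the threshold (edgeR adjusted p = 0.0192). Without burn replicate 3 it was -1.12 with an adjusted p of 0.206, and over all 18 alternatives the adjusted p ran from 0.00135 to 0.350. The fitted size depended on the tool here too. The means of log2 CPM were 3.80 in burn and 5.80 in control, and limma-voom gave -2.03 (adjusted p = 0.0585).

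**Figure D3:**
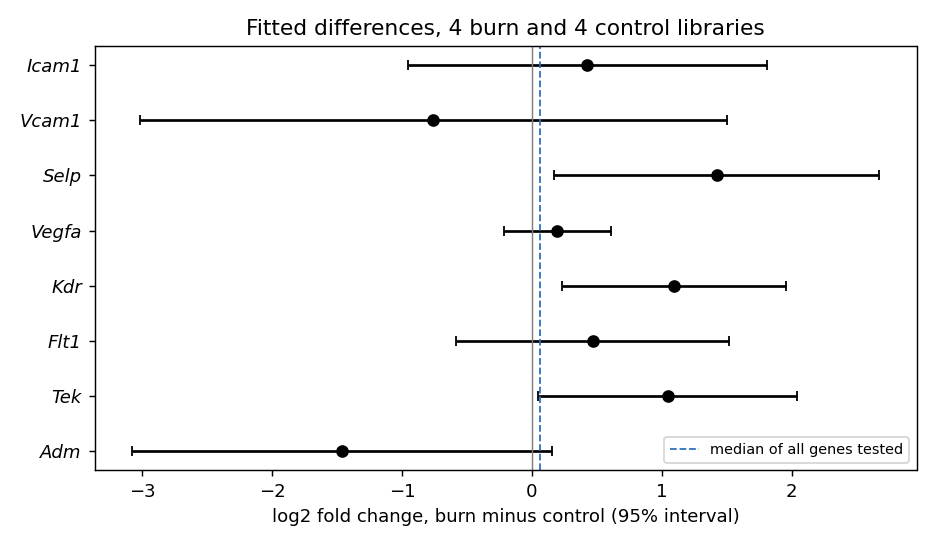
Fitted difference of each gene as log2 fold change (burn over control) on the horizontal axis, with its 95% interval, from 4 burn and 4 control libraries, and a dashed line at the median of all genes tested. The intervals of Selp, Kdr and Tek lie above 0 before adjustment for multiple tests, that of Vegfa is the narrowest and that of Vcam1 the widest.

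Read by library, the burn samples held different combinations of these genes. The places given here use TMM-scaled levels. Scaled by library size alone, Icam1 and Tek in burn replicate 1 would no longer lie above every control library. Flt1 in burn replicate 1 and Vegfa in burn replicate 2 would lie below every one. The percentages of all genes were not recomputed for that scaling. Burn replicate 2 had 5 of the 8 above every control library, namely Icam1, Selp, Kdr, Flt1 and Tek, and 0 below, whereas over all genes tested 38.5% lay above and 36.7% below in that library. Burn replicate 3 had only Kdr above and 4 below, Icam1, Vcam1, Tek and Adm, against 39.1% and 42.8% of all genes. Burn replicate 4 had Selp, Kdr and Tek above and Icam1, Vcam1 and Adm below, against 36.1% and 34.8% of all genes. Burn replicate 1 had Icam1 and Tek above and Adm below, against 38.0% and 37.9%. The SD of log2 CPM was larger in burn than in control for 7 of the 8 genes, beside 84.0% of all genes tested.

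**Figure D4:**
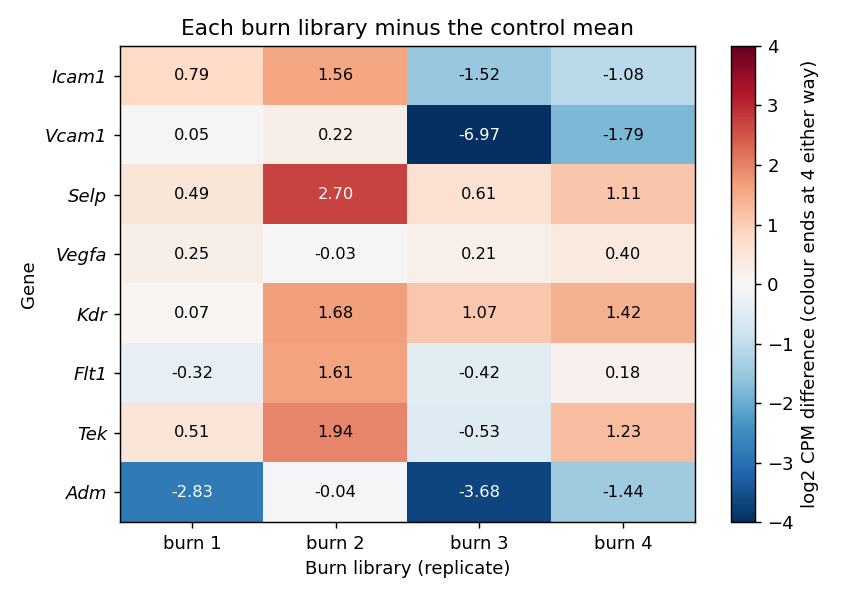
Log2 CPM of each burn library minus the mean of the 4 control libraries, with genes in rows and burn replicates in columns, red above and blue below the control mean, the value printed in each cell and the colour scale ending at 4 either way. Selp and Kdr are positive and Adm negative in all 4 columns, though Kdr in burn replicate 1 (0.069) and Adm in burn replicate 2 (-0.038) lie near the control mean. Icam1 is positive in 2 and negative in 2, and the -6.97 of Vcam1 in burn replicate 3 stands for 0 counts.

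Other genes that followed each of the 8 over the 8 libraries were counted as a description, with no test. Adm had 670 other genes whose log2 CPM correlated with it at a Pearson coefficient above 0.9, Vcam1 548, Tek 198, Flt1 70, Selp 51, Icam1 32, Kdr 17 and Vegfa 3. The highest coefficient ran from 0.921 for Vegfa to 0.998 for Vcam1. The 8 points of each coefficient fall into the burn and control groups, and Vcam1 was at 0 counts in 1 of them, burn replicate 3. The counts were not repeated without burn replicate 3. They were not made for other genes either, so they cannot be called many or few. The matching genes are known here by identifier alone and are not named.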

How the data were processed

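Poly(A)-enriched RNA from 4 burn and 4 control skin sites was sequenced. The authors deposited raw read counts, whole numbers by Ensembl identifier, in 1 column per library. The submitters' processing notes name TopHat2 2.0.9, HTSeq 0.5.4p3, edgeR, R 3.0.1, limma and the build Rnor_5.0. Strand setting, annotation release and the part each tool played were not given in the sources used here, and reads of overlapping or antisense genes could not be told apart.

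The table names genes by identifier. The 8 genes were chosen, with their identifiers, with earlier results of these data known. The RefSeq gene table held 0 entries with an Ensembl rat identifier, so preset lists of other pathway genes and of cell type markers were not analysed here. The rule for named genes took the 8 genes, other pathway genes called, and the gene most like each.

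Groups came from the treatment label. Replicate numbers follow accession order and pair nothing. The test was edgeR 4.0.16 quasi-likelihood in R 4.3.3 with robust dispersions, TMM factors, the default expression filter and group as the only term, adjusted by Benjamini-Hochberg over 14240 genes at 0.05. It was checked on simulated data with the same dispersion in both groups. In the real data the median SD of log2 CPM over all genes was 0.52 in burn and 0.25 in control. The check does not cover such unequal spread. Standard errors are the size of the log2 fold change over the square root of F, and 95% intervals use the total degrees of freedom and are not adjusted for multiple tests. Log2 CPM used a prior count of 2. Ratios were tested by two-sided exact permutation of the 8 libraries, which takes paws of 1 rat as exchangeable. Alternatives were median-ratio factors, library size alone, thinning to 13693811 counts, no filter, 1 CPM in at least 4 libraries, DESeq2 1.42.0, limma 3.58.1 voom with and without quality weights, 1 surrogate variable (sva 3.50.0), a minimum fold of 1.5, an adjusted p of 0.01, no 25 most abundant genes, 0 or 1 added to counts in ratios, and leaving out each library. Libraries of a group were distinct, with a chi-square between pairs at least 30.5-fold above sampling noise.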

Additional observations from a re-analysis of the deposited data

Results flagged for a closer look

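In 24 screens of the 8 genes and 4 ratios, each within 1 group of 4 libraries, 2 found a library far from the other 3, and chance gives about 1 in 20 for separate screens. These screens share genes and libraries. Vcam1 in control replicate 3 stood at 2.81 log2 CPM, with the nearest control library at 3.79. That library is also the lowest control for Selp, Flt1 and Adm. The log2 ratio of Icam1 to Vcam1 in burn replicate 3 was 9.72, with the next burn library at 3.73, and it comes from 421 counts of Icam1 and 0 of Vcam1.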

How the results depend on the processing

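Of 144 refitted log2 fold changes of the 8 genes under 18 alternatives, 127 kept their direction and stayed short of the threshold, 12 kept their direction and passed it, and 5 changed sign without passing. The sign changes were Icam1 by limma-voom (-0.092), with quality weights (-0.058) and without burn replicate 2 (-0.27), Flt1 without burn replicate 2 (-0.22) and Vegfa by library size alone (-0.021). With 1 library left out Icam1 ranged from -0.27 to 0.74 and Flt1 from -0.22 to 0.68. The number of genes called higher, 0 with all libraries, was 2 by DESeq2 (Selp, Kdr), 2 by limma-voom with quality weights (Kdr, Tek) and 3 with 1 surrogate variable (Selp, Kdr, Tek). The number called lower was 1, Adm, with quality weights and with the surrogate variable. These settings also called more of all genes, 32.3%, 30.7% and 39.2%. Leaving out 1 library gave 0 to 1 called higher, namely Kdr without burn replicate 1 (13% of all genes called) and Tek without burn replicate 3 (29.3%), and 0 to 1 called lower, Adm without burn replicate 2 (25.3%). The cause of these changes was not tested. A ratio with 0 added could not be formed for Icam1 to Vcam1. Its difference ranged from 0.93 to 3.13 with 1 library left out. Its unadjusted permutation p, under 0.05 with all libraries, was 0.0286 without burn replicate 1, 2 or 4. It was above 0.05 without burn replicate 3 or any 1 control library. The burn and control ratios stayed fully apart in all of these settings. Without 1 control library the difference was 2.35 to 2.73 and the permutation p 0.143 to 0.229. The test takes a difference of means, to which the 9.72 in burn replicate 3 adds much, and the groups are then unequal. These p-values therefore cannot be compared directly with that from all libraries. Tek to Kdr ranged from -0.51 to 0.17 with 1 library left out and changed sign without burn replicate 3. The other pathway genes planned for refitting were not analysed here. No paired analysis was possible because the labels give no animal number. Low counts limit chiefly Vcam1, which had 0 counts in burn replicate 3.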
